A study of Vulpes vulpes with 48 samples.

Results

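Of the 13202 dog gene identifiers counted in fox brain, 3 are described here, ENSCAFG00000004779, ENSCAFG00000024985 and ENSCAFG00000025567. They were chosen from the measurements. In basal forebrain 9 genes were called higher in tame than in aggressive foxes (edgeR adjusted p under 0.05), 6 of these were also called higher in tame prefrontal cortex, and the 3 described here are the remainder. Identifiers are not paired with names in the files, and the fox gene table at hand matched 0 of them, so the 3 genes are given by identifier, without symbol, function, position or sequence.

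The counts come from male silver foxes (Vulpes vulpes) aged 1.5 years, bred in separate lines selected for either tame or aggressive behaviour. Poly(A) RNA of right prefrontal cortex was sequenced in 12 tame and 12 aggressive libraries. Right basal forebrain had 10 tame and 12 aggressive libraries in the tables; ID488 and ID490, both labelled tame forebrain, were not analysed here. Each line is a single selected population, so behaviour and any other inherited difference between the lines cannot be told apart, and the labels name no treatment.

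The fox lines are a long-standing model of domestication, in which breeding animals were picked for their response to people. The prefrontal cortex takes part in the control of social and emotional behaviour. The basal forebrain lies below the striatum and holds the cholinergic neurons that project to the cortex, beside other neuron types. Both samples are bulk tissue, so a higher level can mean more cells of a type or more RNA per cell, which cannot be told apart. Without names, no marker genes were at hand, so the dissection labels were not checked against markers.

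Library totals ran from 6.23 M to 17.2 M in cortex (M stands for 1000000 counts) and from 6.25 M to 13.6 M in forebrain. In cortex, 5 tame libraries (ID187, ID191, ID182, ID186 and ID190) stood apart on the first principal component, which held 78.1% of the variance, with scores of 50.9 or more where the other 19 libraries reached -14.1 at most. In forebrain, tame library ID483 stood apart, with a score of 70.7 on the first component where the next highest library had 25.3. The main cortex and region differences are given with and without these libraries. Other values rest on all libraries unless stated.

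The 3 genes differ widely in how deeply they were counted. ENSCAFG00000025567 averaged 930 counts per library in forebrain and 418 in cortex. ENSCAFG00000024985 averaged 107 and 108. ENSCAFG00000004779 averaged 31.3 counts in forebrain, with a range of 9 to 124, and 12.8 in cortex, with a range of 3 to 47, and 13 of 24 cortex libraries held under 10 counts of it. The median gene averaged 336 counts in forebrain and 354 in cortex. All values of the 3 genes were whole numbers, and 0 other genes had the same values, so none of them was listed as a copy of another gene.

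Levels are given as CPM, counts per 1000000 counts of the library after TMM scaling (trimmed mean of M-values). In forebrain, ENSCAFG00000004779 stood at a lowest, median and highest value of 1.88, 4.12 and 10.2 CPM in tame foxes and of 0.861, 1.64 and 2.89 CPM in aggressive foxes. The tame libraries spread widely, with ID484 and ID485 far above the rest at 7.76 and 10.2 CPM, and 8 of 10 tame libraries lay above the highest aggressive library. The means were 4.61 ± 2.60 (SD, n = 10) and 1.72 ± 0.615 CPM (SD, n = 12), a log2 fold change, tame over aggressive, of 1.43 (SE 0.27).

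ENSCAFG00000025567 was the most deeply counted of the 3. It stood at 79.8, 110.3 and 133 CPM in tame forebrain and at 62.9, 77.6 and 97.7 CPM in aggressive forebrain (lowest, median and highest). The groups overlapped more here, with 7 of 10 tame libraries above the highest aggressive library. Means of 106 ± 17.4 (SD, n = 10) and 77.2 ± 10.5 CPM (SD, n = 12) gave a log2 fold change of 0.46 (SE 0.089).

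ENSCAFG00000024985 stood at 9.49, 12.1 and 15.1 CPM in tame forebrain and at 7.67, 8.62 and 11.6 CPM in aggressive forebrain. Again 7 of 10 tame libraries exceeded the highest aggressive one. Means of 12.3 ± 1.78 (SD, n = 10) and 8.996 ± 1.09 CPM (SD, n = 12) gave a log2 fold change of 0.45 (SE 0.087).

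These forebrain differences chose the genes and are therefore a description, without a test. Over all 12915 forebrain genes, 0.0697% were called higher in tame foxes and 0.0929% in either direction, and the median log2 fold change was 0.0099. For each of the 3 genes the aggressive median was exceeded by all 10 tame libraries; 1.44% of all forebrain genes had that pattern, and 0% had every tame library above every aggressive library. Within the rule, ENSCAFG00000025567 and ENSCAFG00000024985 were nearest to the threshold, both with an edgeR adjusted p of 0.0345. The next gene higher in tame forebrain, ENSCAFG00000014064, lay outside it at 0.0858, with a log2 fold change of 0.19 (SE 0.042).

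Membership was sensitive to single libraries. In 22 fits that each left out 1 forebrain library, the edgeR adjusted p stayed under 0.05 in 11 fits for ENSCAFG00000004779, in 7 for ENSCAFG00000025567 and in 6 for ENSCAFG00000024985. The fold changes themselves moved little. They ran from 1.21 (without tame library ID485) to 1.53 (without aggressive library ID540) for ENSCAFG00000004779, from 0.41 (without ID483) to 0.50 (without ID482) for ENSCAFG00000025567, and from 0.41 (without ID489) to 0.48 (without ID534) for ENSCAFG00000024985. Without tame library ID483, which stood apart, the adjusted p of both ENSCAFG00000024985 and ENSCAFG00000025567 was 0.0787.

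In cortex the line differences of the 3 genes had different sizes, and differences among the genes were not tested. A description as higher mainly in forebrain rests on calls at a threshold. The values below do not establish it for any of the 3. ENSCAFG00000004779 was not tested in the main cortex fit and so had no call there. Fitted in all cortex libraries without the filter, it missed the threshold as well, as given below. The filter on low counts asked for 0.867 CPM in 12 libraries, and 11 libraries reached it. In cortex the gene stood at 0.400, 1.28 and 3.35 CPM in tame foxes and at 0.313, 0.675 and 1.27 CPM in aggressive foxes (lowest, median and highest), and 6 of 12 tame libraries lay above the highest aggressive library. Fitted without the filter, its cortex log2 fold change was 1.25 (SE 0.32), beside 1.43 (SE 0.27) in forebrain.

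The 5 tame cortex libraries that stand apart held less of this gene, at 0.927 ± 0.499 CPM (SD, n = 5), than the other tame libraries, at 1.97 ± 1.11 CPM (SD, n = 7). The aggressive libraries averaged 0.648 ± 0.280 CPM (SD, n = 12). With the 5 libraries left aside, ENSCAFG00000004779 passed the filter with a log2 fold change of 1.58 (SE 0.31) and an edgeR adjusted p of 0.0264. Under that setting it would have counted among the genes called in both regions. The 5 libraries are all tame and on average lower in this gene than the other tame libraries, so leaving them aside raises its tame mean. They ranged from 0.400 to 1.56 CPM, and the highest, ID190, lay above the highest aggressive library at 1.27 CPM. Without the filter and with all 24 libraries its adjusted p was 0.0708, which misses the threshold, and it fell under 0.05 in 1 of 24 fits that left out a library, at 0.0455 without tame library ID192.

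ENSCAFG00000025567 stood at 13.3, 37.6 and 68.1 CPM in tame cortex and at 25.4, 29.02 and 47.35 CPM in aggressive cortex. The tame values enclosed the aggressive ones, with ID187 and ID191 below all of them and ID185 above all of them. Means of 38.2 ± 13.2 and 30.4 ± 5.95 CPM (SD, n = 12 each) gave a log2 fold change of 0.33 (SE 0.17). Without the 5 libraries it was 0.50 (SE 0.13), more than 1.5 times as large, and the 7 remaining tame libraries averaged 43.1 ± 11.8 CPM (SD, n = 7).

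ENSCAFG00000024985 was the gene whose cortex difference lay nearest to 0. It stood at 3.92, 10.02 and 13.2 CPM in tame cortex and at 6.61, 8.93 and 10.4 CPM in aggressive cortex. The lowest tame values, 3.92 and 5.003 CPM, belonged to ID191 and ID187, while 5 of 12 tame libraries exceeded every aggressive one. Means of 9.19 ± 2.62 and 8.63 ± 1.05 CPM (SD, n = 12 each) gave a log2 fold change of 0.094 (SE 0.14). Without the 5 libraries the tame mean was 10.7 ± 1.42 CPM (SD, n = 7) and the log2 fold change 0.30 (SE 0.093), against 0.094 with all libraries. Within lines, Pearson's r with the TMM scaling factor over 24 cortex libraries was 0.64 for ENSCAFG00000004779, 0.90 for ENSCAFG00000024985 and 0.83 for ENSCAFG00000025567. Over the 19 libraries that do not stand apart it was 0.19, 0.41 and 0.75 in the same order. That factor was 0.748 in ID187 and 0.768 in ID191. The part of the 5 libraries and of the scaling in the cortex values of the 3 genes was not tested further.

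**Figure D1:**
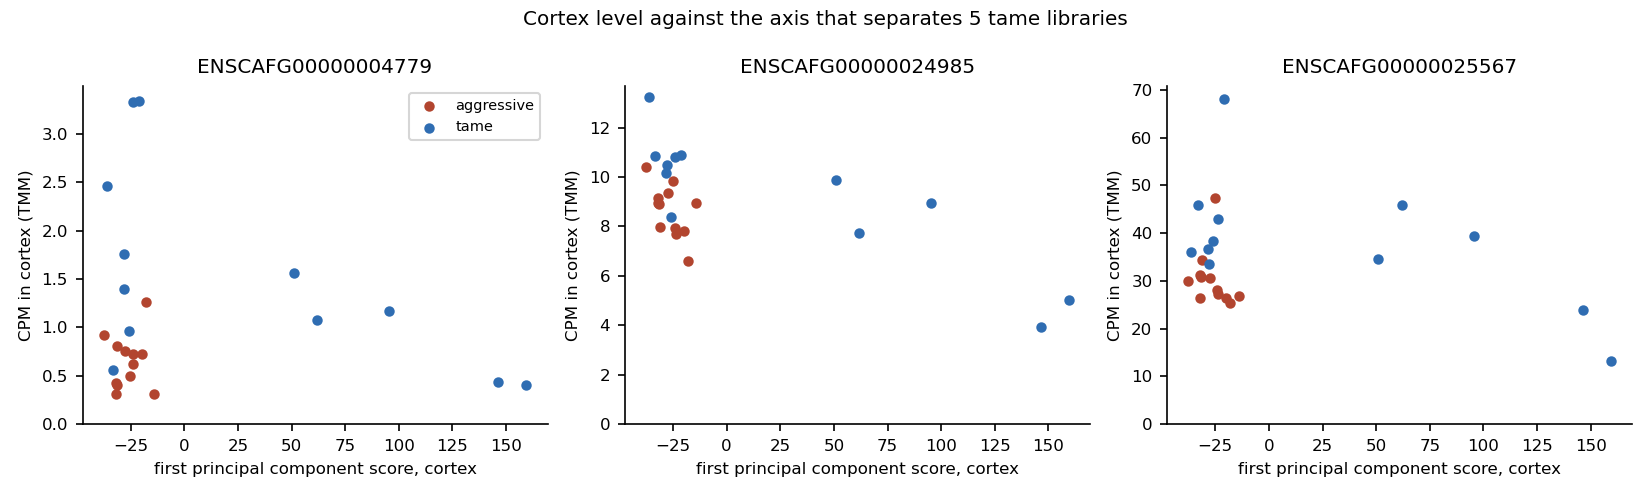
CPM of each gene in the 24 cortex libraries (vertical axis, starting at 0) against the library's score on the first principal component of the cortex libraries (horizontal axis, no unit), with 1 point per library, blue for tame and red for aggressive. The 5 tame libraries at scores of 50.9 or more include ID187 and ID191, the lowest tame libraries for each of the 3 genes.

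The cortex line difference also entered the choice of the genes, so it too is given without a test for ENSCAFG00000024985 and ENSCAFG00000025567. Of 12705 cortex genes, 0.338% were called higher in tame foxes and 0.433% in either direction, and the 6 genes called in both regions had cortex log2 fold changes of 0.40 to 1.09 with a median of 0.68. The cortex value of ENSCAFG00000004779 lay above that range and those of ENSCAFG00000025567 and ENSCAFG00000024985 below it. In forebrain the same 6 genes ran from 0.36 to 0.96, so ENSCAFG00000004779 exceeded each of them and the other 2 genes lay inside their range.

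The line difference in forebrain minus that in cortex was then read from a joint fit of all 46 libraries. It was 0.18 (SE 0.45) for ENSCAFG00000004779, 0.36 (SE 0.17) for ENSCAFG00000024985 and 0.14 (SE 0.20) for ENSCAFG00000025567, on the log2 scale. With the 5 cortex libraries and ID483 left aside, the 3 values were -0.13 (SE 0.42), 0.12 (SE 0.13) and -0.075 (SE 0.16) in the same order. Both contrasts were used in choosing the genes, so these values carry no test; over all 12695 genes, 0 had an interaction past the edgeR threshold (1853 at an unadjusted p under 0.05). The fit treats the libraries as unpaired. In this joint fit, 4 of 12695 genes were called higher in tame forebrain and 2901 in tame cortex. ENSCAFG00000004779 was called in both, with edgeR adjusted p-values of 0.0292 in forebrain and 0.00974 in cortex. ENSCAFG00000024985 and ENSCAFG00000025567 were not called in forebrain, with edgeR adjusted p-values of 0.273 and 0.423. These values show how membership depends on the fit and carry no test.

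**Figure D2:**
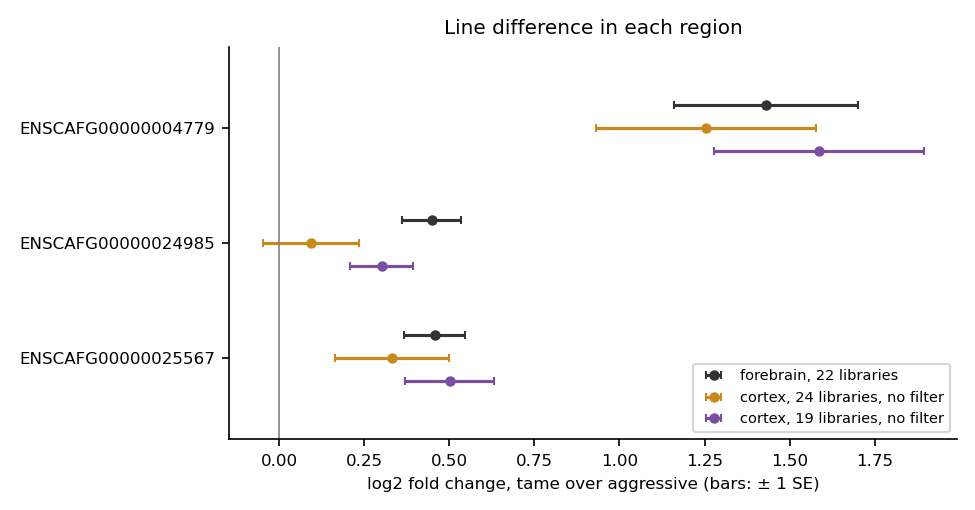
Log2 fold change, tame over aggressive (horizontal axis), of the 3 genes in forebrain (black, 22 libraries), in cortex without the low-count filter (orange, 24 libraries) and in cortex without the 5 tame libraries that stand apart (purple, 19 libraries), with bars of 1 SE to each side. ENSCAFG00000004779 lies over 1.2 in all 3 fits, while ENSCAFG00000024985 moves from 0.094 to 0.30 in cortex.

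The difference between the regions averaged over the lines asks where in the brain each gene is more abundant. ENSCAFG00000025567 was higher in forebrain than in cortex, and for ENSCAFG00000024985 no difference between the regions was detected. The choice of these 2 genes did not use this difference. ENSCAFG00000004779 was left out of the main cortex fit through its low cortex counts, so its region difference is not independent of the choice and is given without a test. Among all 12695 genes of both tables, 33.8% were called higher and 30.2% lower in forebrain, so a higher level there is not particular to these genes. The regions were counted in separate tables, and a difference between the tables enters these values.

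With both regions scaled together, ENSCAFG00000025567 averaged 84.3 ± 18.9 CPM in forebrain (SD, n = 22) and 36.6 ± 11.6 CPM in cortex (SD, n = 24). Each of the 22 forebrain libraries lay above the cortex median and 15 lay above the highest cortex library. The log2 fold change, forebrain over cortex, was 1.21 (SE 0.10, edgeR quasi-likelihood test, adjusted p = 1.70e-14). It was 1.14 (SE 0.14) in aggressive and 1.28 (SE 0.14) in tame foxes. Without the libraries that stand apart, the order turned, with 1.18 (SE 0.10) in aggressive and 1.11 (SE 0.13) in tame foxes.

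ENSCAFG00000004779 averaged 2.83 ± 2.14 CPM in forebrain (SD, n = 22) and 1.17 ± 0.926 CPM in cortex (SD, n = 24). The distributions overlapped, with 21 of 22 forebrain libraries above the cortex median and 6 above the highest cortex library. The forebrain over cortex log2 fold change came to 1.30 (SE 0.21), with 1.21 (SE 0.32) in aggressive and 1.39 (SE 0.29) in tame foxes. Here too the order turned without the libraries that stand apart, with 1.25 (SE 0.31) in aggressive and 1.12 (SE 0.32) in tame foxes.

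ENSCAFG00000024985 averaged 9.78 ± 2.04 CPM in forebrain (SD, n = 22) and 9.52 ± 2.12 CPM in cortex (SD, n = 24). The difference came to 0.042 on the log2 scale (SE 0.085, edgeR adjusted p = 0.680), with a 95% interval from -0.13 to 0.21. The estimate was -0.14 (SE 0.12) in aggressive foxes and 0.22 (SE 0.12) in tame foxes. Both depend on the line differences that chose the gene, so they are given without a test. Without the libraries that stand apart, the values were -0.10 (SE 0.080) in aggressive and 0.024 (SE 0.097) in tame foxes, and the average was -0.038 (SE 0.063).

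The order of the 4 groups differed accordingly. ENSCAFG00000025567 ran from tame forebrain (99.1 ± 16.4 CPM, SD, n = 10) over aggressive forebrain (71.9 ± 9.54 CPM, SD, n = 12) and tame cortex (40.8 ± 14.3 CPM, SD, n = 12) to aggressive cortex (32.5 ± 6.45 CPM, SD, n = 12); the 2 cortex groups lay within 1 SD of the tame group. ENSCAFG00000004779 had tame forebrain first (4.30 ± 2.42 CPM, SD, n = 10) and aggressive cortex last (0.693 ± 0.298 CPM, SD, n = 12). Between them, tame cortex (1.64 ± 1.10 CPM, SD, n = 12) and aggressive forebrain (1.60 ± 0.572 CPM, SD, n = 12) did not differ beyond their spread. ENSCAFG00000024985 had tame forebrain first (11.5 ± 1.64 CPM, SD, n = 10), and its other 3 groups, tame cortex (9.80 ± 2.81 CPM, SD, n = 12), aggressive cortex (9.23 ± 1.13 CPM, SD, n = 12) and aggressive forebrain (8.38 ± 1.01 CPM, SD, n = 12), each lay within 1 SD of the next. Without the libraries that stand apart, tame cortex (11.4 ± 1.50 CPM, SD, n = 7) and tame forebrain (11.2 ± 1.55 CPM, SD, n = 9) were level for ENSCAFG00000024985. For the other 2 genes tame forebrain stayed first, and tame cortex averaged 46.1 ± 13.0 CPM for ENSCAFG00000025567 and 2.11 ± 1.19 CPM for ENSCAFG00000004779 (SD, n = 7 each).

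**Figure D3:**
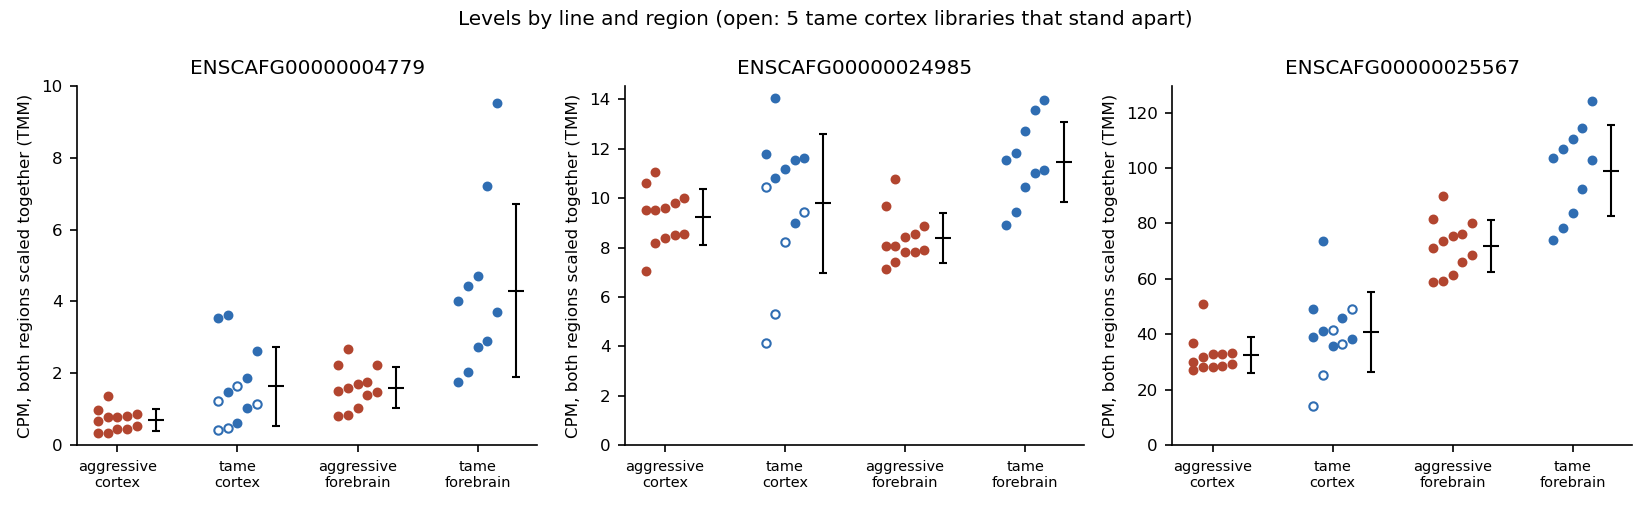
CPM of each gene with both regions scaled together (vertical axes, starting at 0) in the 46 libraries by line and region, with 1 point per library and the mean and SD of each group as a bar beside it; open points are the 5 tame cortex libraries that stand apart. Tame forebrain has the highest mean for each gene over all libraries, but for ENSCAFG00000024985 the 7 filled tame cortex points (mean 11.4 CPM) lie level with it.

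The spread among foxes of a line was largest for the least deeply counted gene. In forebrain the SD was 56.3% of the mean in tame and 35.8% in aggressive foxes for ENSCAFG00000004779. It was 14.5% and 12.2% for ENSCAFG00000024985, and 16.4% and 13.6% for ENSCAFG00000025567. No pair of the 3 genes had a within-line correlation in forebrain that passed the test. Over the 22 forebrain libraries, after subtraction of line means, Pearson's r was 0.35 (Spearman's rho 0.28) between ENSCAFG00000004779 and ENSCAFG00000024985, -0.30 (rho -0.36) between ENSCAFG00000004779 and ENSCAFG00000025567, and -0.16 (rho -0.14) between ENSCAFG00000024985 and ENSCAFG00000025567. The permutation p-values of r were 0.138, 0.216 and 0.501 and those of rho 0.229, 0.116 and 0.561 (two-sided, 100000 shuffles within lines). Adjusted over the 3 relations, they were 0.324, 0.324 and 0.501 for r and 0.344, 0.344 and 0.561 for rho. Without the 2 libraries farthest from the median of the gene named first, r was 0.19, -0.28 and 0.080. Without ID483 it was 0.36, -0.33 and -0.32 over 21 libraries in the same order. In cortex the same relations were not tested. There r was 0.55, 0.50 and 0.67 over 24 libraries, and -0.0056, 0.12 and 0.30 over the 19 that do not stand apart.

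The wide spread of ENSCAFG00000004779 in tame foxes recurred in both regions. Libraries of the same line whose numbers share their last 2 digits were set side by side, which gave 9 tame and 11 aggressive pairs; the labels do not say that such a pair is 1 fox. In tame foxes the highest forebrain libraries, ID485 and ID484, went with the highest cortex libraries, ID185 and ID184 (3.35 and 3.33 CPM), and the lowest forebrain libraries, ID492 and ID491, went with low cortex libraries, ID192 and ID191 (0.561 and 0.435 CPM). Pearson's r over the 9 tame pairs was 0.93 (exact two-sided permutation p = 0.000835, adjusted over 6 relations 0.00501), and Spearman's rho was 0.88 (exact p = 0.00308, adjusted 0.0185). Without the 2 pairs farthest from the cortex median, r was 0.83 (n = 7). The 9 pairs include cortex libraries ID182, ID186, ID187 and ID191 and forebrain library ID483, which stand apart. For tame pairs alone, r without these libraries was not computed.

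In the aggressive pairs r was 0.15 (permutation p = 0.654, n = 11), with a rho of 0.0091 (permutation p = 0.990); both p-values were the same after adjustment. Without the 2 pairs farthest from the cortex median, r was 0.43 (n = 9). The difference between the lines was not tested, and aggressive cortex libraries held as few as 3 counts of this gene. Over all 20 pairs, after subtraction of line means, r was 0.72 for ENSCAFG00000004779, above 99.5% of the 12695 genes, whose median was 0.0072. With pairs that include a library standing apart left out, r was 0.65 over 15 pairs, at the percentile 95.3 of all genes, whose median was then 0.20.

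For the other 2 genes the pairs gave no relation that passed the adjustment. ENSCAFG00000024985 had r = 0.49 in tame (exact permutation p = 0.180, rho 0.27 with exact p = 0.493) and r = -0.31 in aggressive pairs (permutation p = 0.344, rho -0.25 with p = 0.471). ENSCAFG00000025567 had r = -0.31 in tame (exact permutation p = 0.413, rho -0.37 with exact p = 0.336) and r = 0.41 in aggressive pairs (permutation p = 0.215, rho 0.57 with p = 0.0720). The adjusted values over the 6 relations were 0.430 to 0.496 for these r and 0.216 to 0.592 for these rho. Without the 2 pairs farthest from the cortex median, r of ENSCAFG00000024985 was 0.040 in tame (n = 7) and -0.61 in aggressive pairs (n = 9), and r of ENSCAFG00000025567 was -0.0027 and 0.85, so each of these values depended on those pairs.

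**Figure D4:**
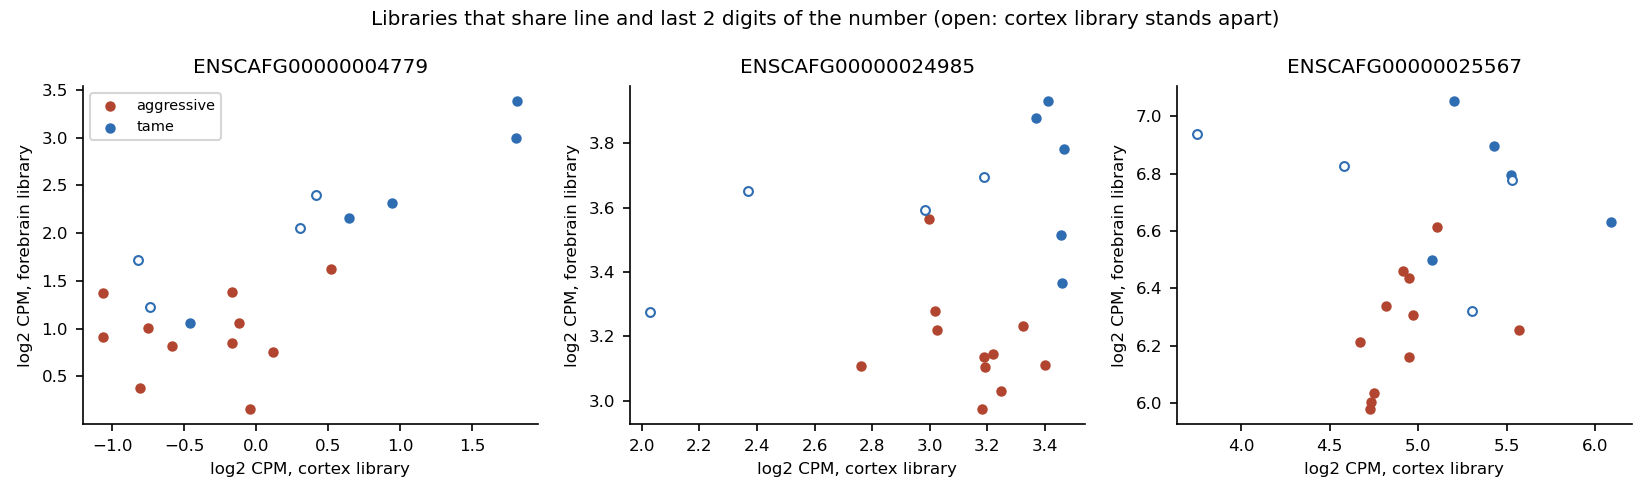
Log2 CPM in the forebrain library (vertical axis) against log2 CPM in the cortex library (horizontal axis) for the 20 pairs of libraries that share line and the last 2 digits of their number, blue for tame and red for aggressive, with open points where the cortex library stands apart. For ENSCAFG00000004779 the 9 tame pairs lie along a rising line (r = 0.93), and in the panels of the other 2 genes no relation passed the test.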

How the data were processed

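For each region the deposited table holds the estimated counts of the authors, by dog gene, per the file headers; 4.36% of cortex and 4.43% of forebrain values were not whole. The submitters' processing notes name CASAVA 1.8.2, FastQC, Trimmomatic, BWA, bedtools, edgeR and the dog build canFam3, without their roles. Fox reads assigned to dog genes can be lost where the sequences differ. How reads shared between genes were split is not given in the sources used here.

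Counts were rounded, filtered with filterByExpr (minimum count 10), scaled by TMM and fitted with robust quasi-likelihood tests (edgeR 4.0.16, R 4.3.3), with Benjamini-Hochberg adjustment over 12915 forebrain, 12705 cortex and 12695 joint genes and a threshold of 0.05. An SE is the log2 fold change over the square root of its F statistic. Log2 CPM used a prior count of 2. Alternatives used DESeq2 1.42.0 and limma 3.58.1. The fit was also run on counts simulated from the gene means and dispersions it had estimated, drawn independently for each library. That simulation held no paired and no shifted libraries, so it cannot show how the p-values behave with them. P-values measure the spread between libraries, which are labelled as separate foxes by number only.

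The genes, lists and comparisons were chosen with earlier results of these data known. The genes named beside the 3 were the pair around the threshold and, per gene, the 2 with the highest within-line correlation in forebrain. Shuffling tests of correlations, the cortex fits without filter that left out libraries, and the group levels and region differences by line without the libraries that stand apart were added after the data were seen. A list of cell type markers could not be used without gene names.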

Additional observations from a re-analysis of the deposited data

How the results depend on the processing

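Called genes between the lines numbered 12 in forebrain and 55 in cortex. DESeq2 called 54 (25 higher and 29 lower in tame) and 898 (865 and 33), and 12 of the 12 and 12 of the 55 were among them; the other whole-table settings gave 10 to 12 and 47 to 58, except that cortex without the 5 tame libraries gave 30 (14 and 16, 15 shared). Leaving out 1 library gave 21 (without ID239) to 141 (without ID181) in cortex. For these changes the cause was not tested. In cortex DESeq2 gave no adjusted p for ENSCAFG00000024985 and ENSCAFG00000025567, and genes without one were counted as not called. For the 3 genes, the forebrain log2 fold changes kept their sign in all alternatives run. With limma-voom, ENSCAFG00000004779 had 1.33 and an adjusted p of 0.09995, while DESeq2 gave adjusted p-values of 0.000522 to 0.00241 for the 3 genes. The genes were chosen on this same forebrain difference. These p-values therefore show only how membership depends on the method and are no test of the genes. The region difference of ENSCAFG00000025567 passed the threshold in all 6 alternatives (1.14 to 1.25). That of ENSCAFG00000004779 ran from 1.18 to 1.33 and that of ENSCAFG00000024985 from -0.038, without the libraries that stand apart, to 0.064. With a replicate block over the 20 pairs, limma-voom called 8453 genes between regions, against 8411 without it, and changed no call of the 3 genes; deviations of the pairs correlated from -0.28 to 0.35 across genes, with 14 of 20 over 0.1. Not every pair passed that bar, so the main fits carry no block, and pairs were set side by side by number alone. Depth limits ENSCAFG00000004779 most, at 3 to 47 counts per cortex library.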

Other observations

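The genes that varied most like each of the 3 within the lines in forebrain did not pass the test between the lines there. Only 0.0929% of all 12915 forebrain genes passed it, so this is not particular to them. For ENSCAFG00000004779 they were ENSCAFG00000011567 (r = 0.80) and ENSCAFG00000023991 (r = 0.79), for ENSCAFG00000024985 ENSCAFG00000004135 and ENSCAFG00000017609 (both r = 0.72), and for ENSCAFG00000025567 ENSCAFG00000009021 (r = 0.81) and ENSCAFG00000014435 (r = 0.80), each over 22 libraries and picked as the highest of 13088 genes. Their own forebrain log2 fold changes between the lines ran from -0.12 to 0.090, with edgeR adjusted p-values of 0.533 or more. In cortex, r over all 24 libraries was -0.56 and -0.48 for the pair of ENSCAFG00000004779, -0.88 and -0.88 for that of ENSCAFG00000024985, and 0.72 and 0.74 for that of ENSCAFG00000025567. Over the 19 libraries that do not stand apart it was 0.13 and 0.25, -0.54 and -0.62, and -0.24 and 0.11 in the same order.

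The rows of both deposited tables follow nearly the order of the line p-values computed here (Spearman's rho across genes 0.976 in forebrain and 0.956 in cortex). ENSCAFG00000004779, which the filter kept out of the cortex fit, stands in row 47 of 12808 in the cortex table and in row 3 of the forebrain table. ENSCAFG00000025567 and ENSCAFG00000024985 stand in rows 15 and 20 of the forebrain table and in rows 4823 and 11102 of the cortex table. What set the row order is not given in the sources used here.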
